A study of Mus musculus with 12 samples.

Results

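The Cyp2c epoxygenase family was read on 12 two-colour Agilent arrays of mouse liver RNA. The 9 genes asked for by name were Cyp2c29, Cyp2c37, Cyp2c38, Cyp2c39, Cyp2c40, Cyp2c44, Cyp2c50, Cyp2c54 and Cyp2c55, and every non-control probe carrying 1 of these names was taken. Of the 9 genes, 8 had a probe, which gave 11 of the 41174 probes of the array: 2 each for Cyp2c37, Cyp2c38 and Cyp2c40 and 1 for each of the others. No probe carried the name Cyp2c50, which was not analysed here.

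The samples formed 4 groups of 3 arrays each: Cyp1b1 null mice on the high-fat diet (60% fat), Cyp1b1 null mice on the low-fat diet (10% fat), C57BL6/J wild-type mice on the high-fat diet and C57BL6/J wild-type mice on the low-fat diet. All mice were male, were weaned onto their diet at 3 weeks of age and were killed at 14 weeks. Each array compared 1 sample, in the dye Cy3, with a common pool of liver RNA from wild-type mice on low fat, in the dye Cy5, so that values are log2 ratios of sample over pool. The labels describe each sample as 3 samples pooled and do not say whether replicates are separate pools of mice; the p-values cover only the spread from array to array. The labels name the tissue liver hepatocytes.

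Family 2C cytochrome P450s are haem enzymes of the endoplasmic reticulum that take electrons from NADPH-cytochrome P450 reductase (Por). Several of them add oxygen across a double bond of arachidonic acid to give epoxyeicosatrienoic acids, which soluble epoxide hydrolase (Ephx2) then opens to diols; others hydroxylate the same fatty acid, and many also clear drugs. In the liver their transcription is known to depend on HNF4A and on the xenobiotic receptors CAR (Nr1i3) and PXR (Nr1i2), and part of the family differs between the sexes.

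In the RefSeq annotation of GRCm38.p6 the family forms a cluster on chromosome 19 in the order Cyp2c55, Cyp2c65, Cyp2c66, Cyp2c29, Cyp2c39, Cyp2c38, Cyp2c67, Cyp2c68, Cyp2c40, Cyp2c69, Cyp2c37, Cyp2c54, Cyp2c50 and Cyp2c70, with no other protein-coding gene between them. The gene that the array calls Cyp2c44 is now named Cyp2c23 and follows on the same chromosome after 52 other protein-coding genes. Because the genes are close copies, the probe sequences of 7 of the 11 probes are shown, each 60 bases long and written 5′ to 3′ as the array files give them. Capitals mark a stretch that aligns without gaps to a probe of another member, with at least 18 identical bases and at least 75% identity. Where a probe has several such partners, the capitals mark the bases common to all of these alignments.

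Cyp2c29 A_51_P103706: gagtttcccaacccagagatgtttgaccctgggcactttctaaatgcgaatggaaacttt
Cyp2c37 A_52_P625249: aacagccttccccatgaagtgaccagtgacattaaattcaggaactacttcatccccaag
Cyp2c38 A_51_P342206: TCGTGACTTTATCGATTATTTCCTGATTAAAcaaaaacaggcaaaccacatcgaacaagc
Cyp2c39 A_51_P304109: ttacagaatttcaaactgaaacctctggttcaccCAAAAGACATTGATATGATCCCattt
Cyp2c40 A_51_P502599: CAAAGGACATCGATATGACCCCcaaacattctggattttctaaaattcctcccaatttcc
Cyp2c40 A_52_P200121: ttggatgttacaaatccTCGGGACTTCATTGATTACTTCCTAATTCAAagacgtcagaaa
Cyp2c54 A_52_P154580: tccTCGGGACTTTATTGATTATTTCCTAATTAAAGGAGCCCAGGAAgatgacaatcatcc

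The probes of Cyp2c38, Cyp2c40 and Cyp2c54 named A_51_P342206, A_52_P200121 and A_52_P154580 align with each other. The Cyp2c54 probe matched the Cyp2c40 probe at 38 of 46 aligned bases (82.6%) and the Cyp2c38 probe at 38 of 50 (76%). The Cyp2c39 probe and Cyp2c40 probe A_51_P502599 matched at 19 of 22 bases (86.4%). Transcripts of 1 member may bind a probe of another, and the part of such binding in the values below was not tested.

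For the genes whose values are described most closely below, the bases just upstream of the annotated gene are shown (RefSeq, GRCm38.p6, in the direction of transcription). They are chr19:39286835-39287043 for Cyp2c29, chr19:39992174-39992423 for Cyp2c37 and chr19:39347096-39347345 for Cyp2c39, all on the plus strand, and chr19:39463104-39463325 for Cyp2c38, on the minus strand. Capitals mark CAAAGTC, the core of a known HNF4 binding element.

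Cyp2c29: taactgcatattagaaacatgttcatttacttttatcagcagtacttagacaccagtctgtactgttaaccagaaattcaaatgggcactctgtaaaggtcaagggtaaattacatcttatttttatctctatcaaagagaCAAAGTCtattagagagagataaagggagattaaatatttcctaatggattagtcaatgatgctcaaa
Cyp2c37: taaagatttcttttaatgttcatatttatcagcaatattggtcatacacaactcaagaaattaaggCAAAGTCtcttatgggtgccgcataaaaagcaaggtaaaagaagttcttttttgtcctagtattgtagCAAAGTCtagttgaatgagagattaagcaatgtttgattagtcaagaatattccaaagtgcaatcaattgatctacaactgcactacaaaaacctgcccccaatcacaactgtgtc
Cyp2c39: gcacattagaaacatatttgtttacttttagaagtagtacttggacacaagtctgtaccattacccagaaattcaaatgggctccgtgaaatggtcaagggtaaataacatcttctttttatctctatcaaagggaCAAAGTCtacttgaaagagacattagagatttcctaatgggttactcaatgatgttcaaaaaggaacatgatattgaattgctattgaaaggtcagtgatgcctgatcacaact
Cyp2c38: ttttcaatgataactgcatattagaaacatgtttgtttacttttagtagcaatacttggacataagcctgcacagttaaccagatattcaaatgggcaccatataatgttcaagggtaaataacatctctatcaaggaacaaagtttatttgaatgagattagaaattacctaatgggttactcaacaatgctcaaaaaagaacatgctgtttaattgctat

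Over windows of 300 bases (250 before to 50 after the start), searched on both strands, CAAAGTC occurred in 1459 of 32851 RefSeq promoters (4.44%). It occurred in 4 of the 7 members that have a window in the RefSeq table: once each in Cyp2c29, Cyp2c39 and Cyp2c40, and 2 times in Cyp2c37. It did not occur in the windows of Cyp2c38, Cyp2c50 and Cyp2c55. The nuclear receptor element AGGTCA occurred once each in Cyp2c29 and Cyp2c39, and in 16.3% of all windows. The other motifs searched were TATAAA and TTCNNNGAA. TATAAA occurred once each in Cyp2c29, Cyp2c38, Cyp2c40 and Cyp2c55, and in 13.6% of all windows. TTCNNNGAA occurred in no member's window, and in 8.3% of all windows. The windows of Cyp2c38 and Cyp2c39 were 78.1% identical, those of Cyp2c29 and Cyp2c39 76%, and those of Cyp2c37 and Cyp2c50 86.6%, whereas Cyp2c37 and Cyp2c38 were 59% identical. The motifs were picked with these sequences in view, and a match describes letters only.

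All 11 family probes counted as measured, meaning that in at least 1 group all 3 arrays had a Cy3 signal well above background, which held for 21479 probes. None was saturated on any array. Cyp2c29, both Cyp2c40 probes, Cyp2c44, Cyp2c39, both Cyp2c37 probes, Cyp2c54 and the dim Cyp2c55 probe were well above background on all 12 arrays. The 2 Cyp2c38 probes were well above background on all 6 wild-type arrays, but on 2 of 6 null arrays (A_51_P342206) and on 0 of 6 null arrays (A_52_P468564). Both Cyp2c38 probes therefore passed the filter only through the wild-type arrays.

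A few facts of the arrays touch every value. Per array, 18363 to 23428 probes had a Cy3 signal well above background, and the number of arrays limits the precision. The hepatocyte markers Alb, Ttr, Tat, Apoa1 and Hnf4a were well above background on all 12 arrays. Probes for Kupffer cells (9 of 11), stellate cells (11 of 19) and endothelial cells (10 of 15) were also measured. Cyp1b1 probe A_51_P255456 read 1.25 to 1.68 in the 6 null samples and -1.11 to 0.18 in the 6 wild-type samples, so it goes against the label. The sources used here do not say whether that probe lies in the deleted part, and it does not check the label. Null below means labelled null.

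Wild-type low-fat array 1 stood apart from the other 11. Its median log2 ratio over the 10 measured probes of male-biased liver genes was -1.88, against 0.25 to 1.85 on the other arrays. Over the 10 measured probes of female-biased genes its median was 0.55, against -2.29 to -0.03. Its medians for Kupffer cell (0.48), stellate cell (0.51) and endothelial cell markers (0.39) were above 0, and those of every other array were below 0. Their part in the Cyp2c values was not tested, and values without this array stand beside the results it moves most. In bulk RNA, fewer cells of a type and less RNA per cell cannot be told apart.

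**Figure D1:**
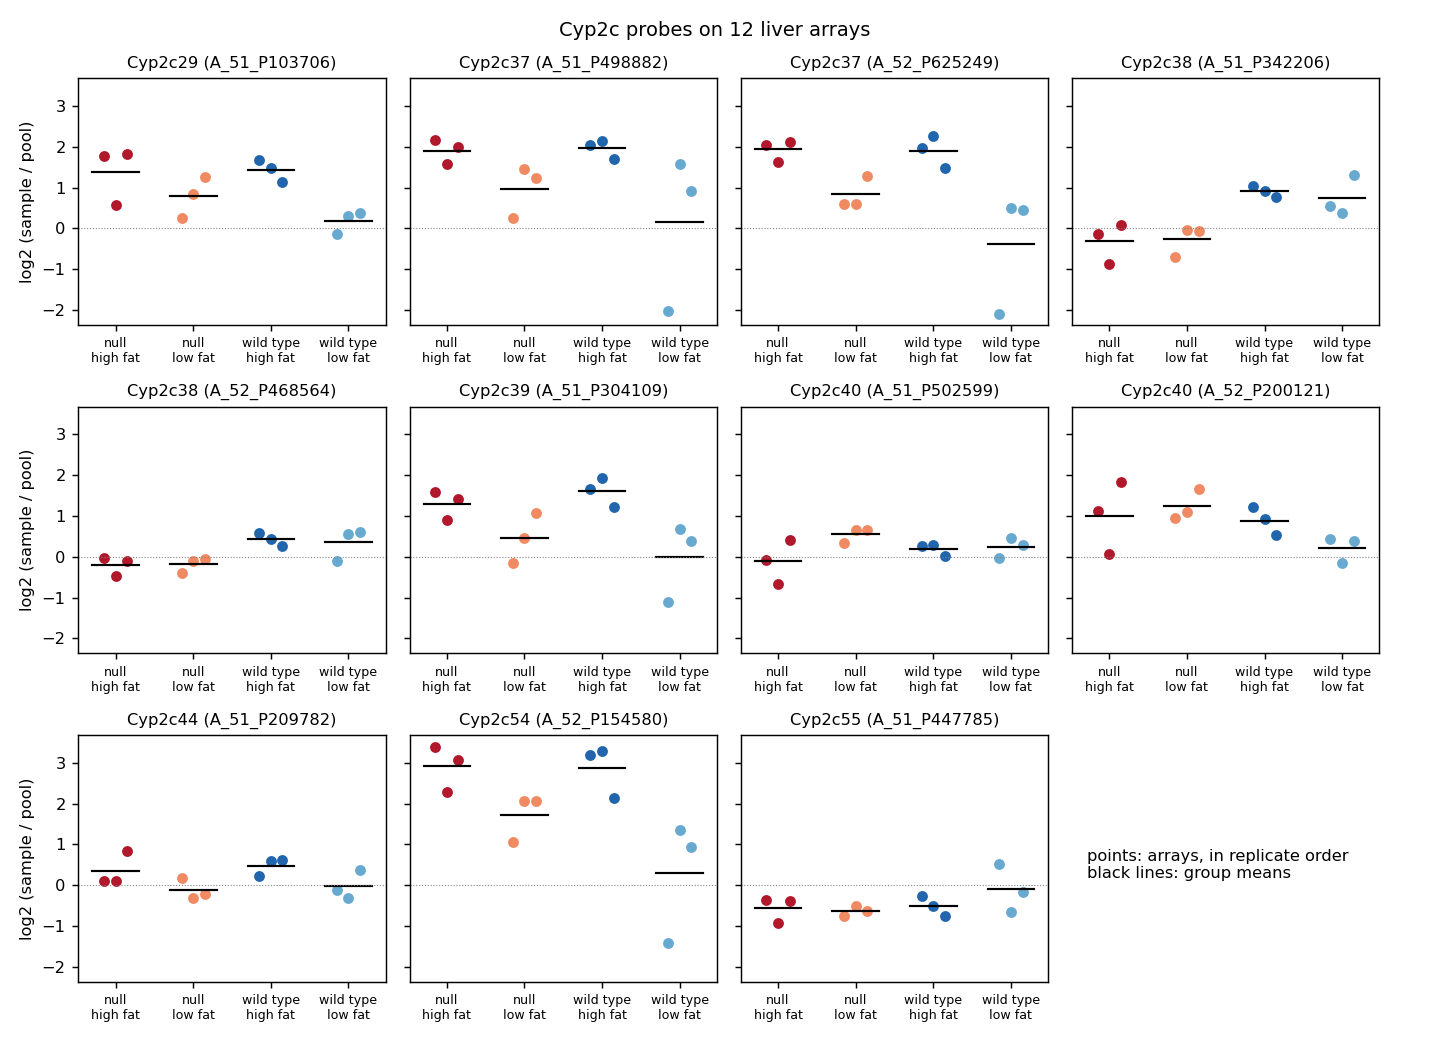
Log2 ratio of sample over pool (y axis) of the 11 Cyp2c probes in null and wild-type livers on high and low fat (x axis). Points are arrays and black lines are group means (n = 3 arrays per group); Cyp2c37, Cyp2c39 and Cyp2c54 on wild-type low-fat array 1 lie at -2.09 to -1.10, below every other array.

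The first question was how the family differed between the diets. Cyp2c29, Cyp2c37, Cyp2c39 and Cyp2c54 were brighter on high fat than on low fat in wild-type livers, by 1.25 to 2.59 on the log2 scale, and no wild-type high-fat array overlapped the low-fat ones for any of their 5 probes, a pattern seen for 5.31% of all probes. None of the 5 passed the test after adjustment over all probes. In null livers the same 5 probes were 0.60 to 1.19 higher on high fat. Cyp2c44 was 0.49 higher in wild-type and 0.48 higher in null livers, and neither passed. The 95% intervals of Cyp2c38 and Cyp2c55 included 0 in both genotypes.

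Cyp2c54, an epoxygenase next to Cyp2c37 in the cluster, had the largest diet difference in the family. Its log2 ratios were 3.40, 2.30 and 3.06 in null high-fat livers and 1.06, 2.06 and 2.07 in null low-fat livers. They were 3.20, 3.30 and 2.15 in wild-type high-fat livers and -1.41, 1.35 and 0.94 in wild-type low-fat livers. The high-fat arrays lay above the low-fat arrays in both genotypes, with the lowest value on wild-type low-fat array 1. The difference was 2.59 in wild-type livers (SE 0.64, 95% interval 1.19 to 3.99, adjusted p = 0.429). In null livers it was 1.19 (SE 0.64, adjusted p = 1).

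Cyp2c37, an arachidonate hydroxylase and epoxygenase, was brighter on high fat with both of its probes. Probe A_52_P625249 read 2.05, 1.64 and 2.11 in null high-fat livers and 0.59, 0.61 and 1.29 in null low-fat livers. It read 1.96, 2.26 and 1.47 in wild-type high-fat livers and -2.09, 0.50 and 0.44 in wild-type low-fat livers. Neither genotype's diet groups overlapped. The diet difference was 2.28 in wild-type livers (SE 0.56, adjusted p = 0.429) and 1.10 in null livers (SE 0.56, adjusted p = 1). Probe A_51_P498882 read 2.15, 1.57 and 1.99 in null high-fat livers and 0.25, 1.45 and 1.22 in null low-fat livers. In wild-type livers it read 2.04, 2.15 and 1.70 on high fat and -2.01, 1.58 and 0.92 on low fat. The groups did not overlap, although wild-type low-fat array 2 came within the range of the null high-fat arrays, and the differences were 1.80 in wild-type livers (adjusted p = 0.664) and 0.93 in null livers (adjusted p = 1).

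Cyp2c39, an epoxygenase also known to hydroxylate retinoic acid, read 1.59, 0.91 and 1.41 in null high-fat livers and -0.16, 0.47 and 1.08 in null low-fat livers. It read 1.65, 1.94 and 1.23 in wild-type high-fat livers and -1.10, 0.69 and 0.40 in wild-type low-fat livers. The wild-type groups did not overlap and the null groups did. The diet difference was 1.61 in wild-type livers (SE 0.45, adjusted p = 0.444) and 0.84 in null livers (SE 0.45, adjusted p = 1).

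Cyp2c29, an epoxygenase that CAR activators are known to induce, read 1.78, 0.57 and 1.81 in null high-fat livers and 0.25, 0.85 and 1.26 in null low-fat livers. It read 1.68, 1.48 and 1.13 in wild-type high-fat livers and -0.13, 0.30 and 0.37 in wild-type low-fat livers. Null high-fat array 2 was low and overlapped the low-fat arrays, and the wild-type groups did not overlap. The diet difference was 1.25 in wild-type livers (SE 0.35, adjusted p = 0.444) and 0.60 in null livers (SE 0.35, adjusted p = 1).

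**Figure D2:**
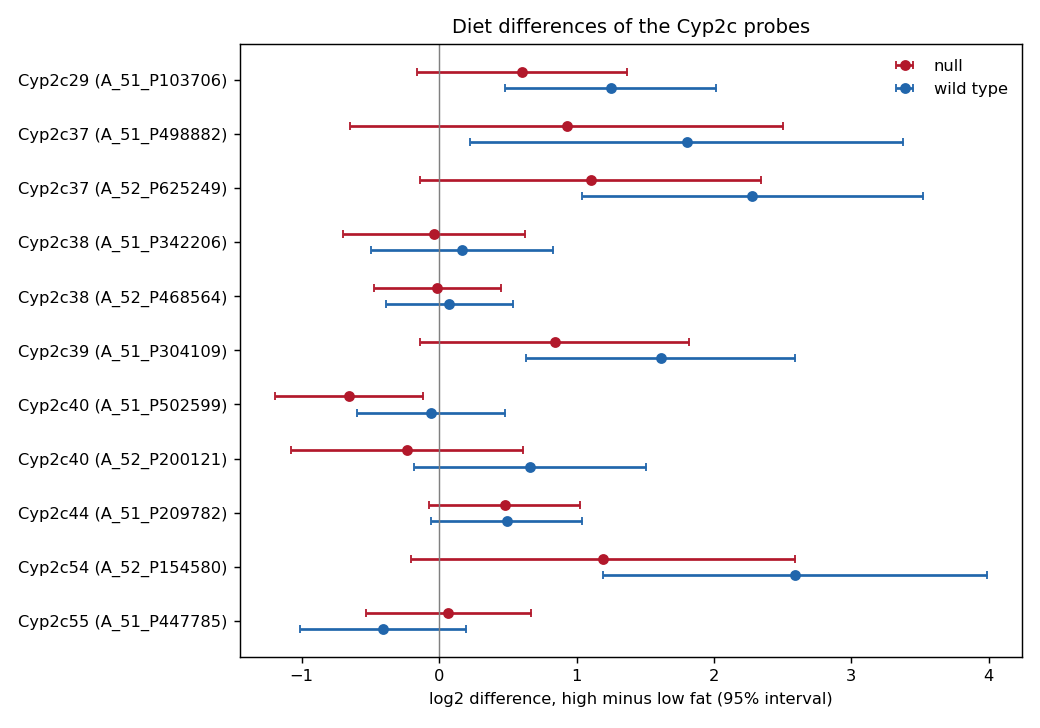
Log2 difference between high and low fat (x axis) of the 11 Cyp2c probes (y axis) in null and wild-type livers, with 95% intervals from the limma fit. In wild-type livers the intervals of Cyp2c29, Cyp2c37, Cyp2c39 and Cyp2c54 lie above 0, and every null interval of these probes includes 0.

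Over the family, 0 of 11 probes passed the adjusted threshold of 0.05 for diet in wild-type livers, where 0% of all 21479 probes did. At an unadjusted p under 0.05 there were 5 of 11, against 6.89% of all probes. The groups did not overlap, with high fat above low fat, for 6 of 11 family probes, against 5.31% of all probes; the sixth was Cyp2c40 probe A_52_P200121. The median diet difference of the family was 0.66 in wild-type livers, and 0.01 over all probes.

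In null livers 0 of 11 passed, against 0.00466% of all probes, and 1 of 11 had an unadjusted p under 0.05, against 2.91%. That one was Cyp2c40 probe A_51_P502599, which was lower on high fat (-0.65, adjusted p = 1). The groups did not overlap for 3 of 11 probes, against 3.54% of all probes: Cyp2c54 and both Cyp2c37 probes, all higher on high fat. The family's median difference was 0.48, and 0.02 over all probes.

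Averaged over both genotypes the diet difference was 1.89 for Cyp2c54 (adjusted p = 0.198), 1.69 and 1.37 for the Cyp2c37 probes (0.196 and 0.472), 1.23 for Cyp2c39 (0.237), 0.93 for Cyp2c29 (0.253) and 0.49 for Cyp2c44 (0.456). In this average 0 of 11 family probes passed, against 0.0605% of all probes, and 6 of 11 had an unadjusted p under 0.05, against 8.01%. The 6 high-fat arrays did not overlap the 6 low-fat arrays for 2 of 11 probes, Cyp2c54 and Cyp2c37 probe A_52_P625249, against 0.355% of all probes. Both lay higher on high fat.

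These sizes rest in part on wild-type low-fat array 1. Without it the wild-type diet differences were 1.74 for Cyp2c54, 1.43 and 0.72 for the Cyp2c37 probes, 1.07 for Cyp2c39 and 1.09 for Cyp2c29. Averaged over both genotypes, Cyp2c37 probe A_52_P625249 was then 1.27 higher on high fat and passed the test (adjusted p = 0.0482), while Cyp2c54 (1.47, adjusted p = 0.128) did not. All 5 probes were higher on high fat with and without this array.

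Each wild-type replicate number had its high-fat and its low-fat array on the same slide, which allows the difference to be read within slides. On slides 2, 3 and 4 it was 4.61, 1.95 and 1.21 for Cyp2c54, 4.05, 1.76 and 1.03 for Cyp2c37 probe A_52_P625249 and 2.75, 1.25 and 0.83 for Cyp2c39. It was 1.81, 1.18 and 0.75 for Cyp2c29 and 4.06, 0.57 and 0.78 for Cyp2c37 probe A_51_P498882. Slide 2, which held wild-type low-fat array 1, gave the largest value for each of the 5 probes, and no value was below 0. The only slide with null arrays of both diets, slide 3, gave 1.24 for Cyp2c54, 1.32 and 1.05 for the Cyp2c37 probes, 1.07 for Cyp2c39 and 0.32 for Cyp2c29.

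**Figure D3:**
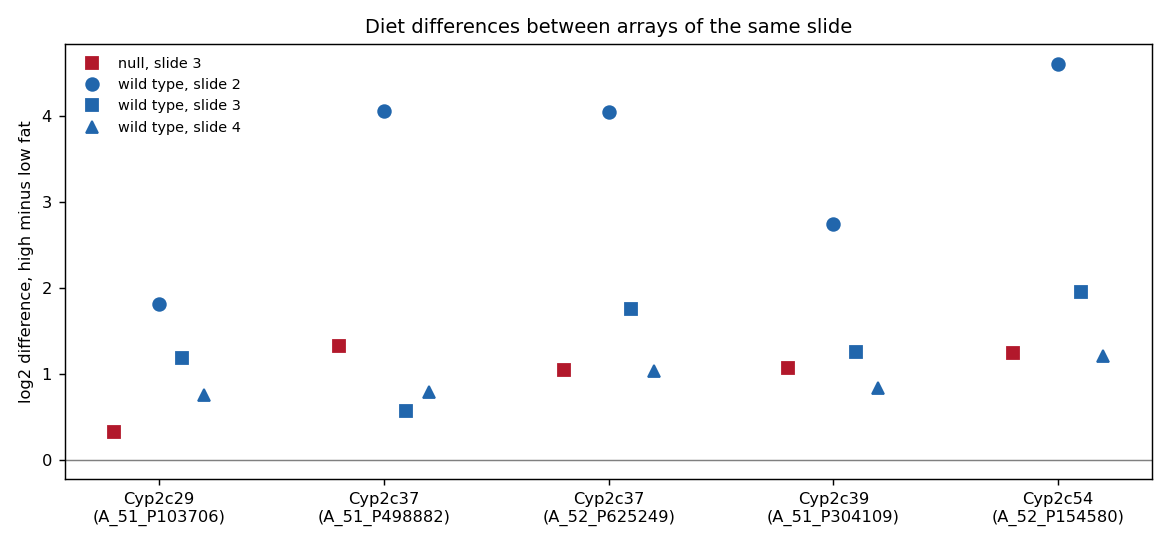
Log2 difference between the high-fat and the low-fat array of the same slide (y axis) for the 5 probes of Cyp2c29, Cyp2c37, Cyp2c39 and Cyp2c54 (x axis), in null and wild-type livers. Each point is 1 slide; all lie above 0, from 0.32 to 4.61, with slide 2 highest.

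Whether the diet difference itself depended on genotype was tested with the interaction term. It was -1.40 for Cyp2c54 (95% interval -3.37 to 0.58) and -0.64 for Cyp2c29 (95% interval -1.73 to 0.44), where a value below 0 means a smaller or opposite diet difference in null than in wild-type livers. Without wild-type low-fat array 1 these were -0.55 and -0.49, and with slide as a block -0.41 and -0.39. Other members changed sign: Cyp2c37 probe A_51_P498882 stood at -0.87, at 0.21 without that array and at 0.46 with slide as a block. In the fit to all 12 arrays none of the 11 passed (adjusted p = 0.9999 for each), none had an unadjusted p under 0.05, against 1.16% of all probes, and 0% of all probes passed.

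The log ratios of Cyp2c29, Cyp2c37, Cyp2c39 and Cyp2c54 were also correlated with each other from array to array. Group means were not removed, so the diet difference by which these genes were grouped is part of each correlation. Over the 12 arrays, which share 1 pool in the reference channel, Pearson's r was 0.98 between Cyp2c37 probe A_52_P625249 and Cyp2c54, 0.95 between Cyp2c39 and Cyp2c54, and 0.89 between Cyp2c29 and Cyp2c54. The 2 Cyp2c37 probes, whose sequences aligned at 8 of 10 bases only, correlated at 0.94. Without wild-type low-fat array 1 these were 0.94, 0.91, 0.92 and 0.79 over 11 arrays. The r of Cyp2c55 with the Cyp2c37 probes was -0.63 and -0.64 over 12 arrays and 0.12 and 0.25 over 11, so its sign rests on that array. The genes outside the family whose log ratios were closest to the mean standardised profile of the 11 probes were Hsd11b1, the enzyme that reactivates glucocorticoids (r = 0.94), the paraoxonase Pon1 (0.92), Dera (0.90), the adiponectin receptor Adipor1 (0.90) and Tmem33 (0.89). Over the 11 arrays these were 0.89, 0.91, 0.87, 0.81 and 0.86.

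The second question was how the family differed between the genotypes. Cyp2c38, an epoxygenase gene next to Cyp2c39 in the cluster, was dimmer in null than in wild-type livers on both diets with both of its probes. Averaged over both diets, probe A_51_P342206 was lower by 1.11 on the log2 scale and A_52_P468564 by 0.58. Both probes entered the test only through the wild-type arrays, on which they were well above background, so that a difference was built into their selection. The adjusted p of A_51_P342206 was just under the threshold, and 0.11 with no such filter.

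Cyp2c38 probe A_51_P342206 had log2 ratios of -0.14, -0.86 and 0.09 in null high-fat livers and -0.71, -0.04 and -0.06 in null low-fat livers. It had 1.03, 0.93 and 0.77 in wild-type high-fat livers and 0.55, 0.38 and 1.31 in wild-type low-fat livers. All 6 null arrays lay below all 6 wild-type arrays. Averaged over both diets the log2 difference was -1.11 (SE 0.21, 95% interval -1.58 to -0.64, adjusted p = 0.0456, where 0.624% of all probes passed). The difference was -1.21 on high fat (adjusted p = 0.361) and -1.01 on low fat (adjusted p = 0.415), and the interaction was -0.20 (95% interval -1.14 to 0.73).

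Cyp2c38 probe A_52_P468564 read -0.02, -0.46 and -0.10 in null high-fat livers and -0.39, -0.09 and -0.06 in null low-fat livers. It read 0.59, 0.43 and 0.26 in wild-type high-fat livers and -0.10, 0.56 and 0.61 in wild-type low-fat livers. The groups overlapped only through wild-type low-fat array 1, at -0.10. The difference averaged over both diets was -0.58 (SE 0.15, adjusted p = 0.154). Without wild-type low-fat array 1 it was -0.70, and that of A_51_P342206 was -1.16.

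The raw sample signals show how dim this gene is. Probe A_51_P342206 gave Cy3 signals of 56.2, 42.5 and 144.6 scanner units in null high-fat livers, over local backgrounds of 43, 39.5 and 76. It gave 43.3, 77.6 and 75.1 in null low-fat livers, over 40, 52.5 and 48. Wild-type signals were 203.6, 165.1 and 193.3 on high fat and 182, 97.8 and 284.3 on low fat, over backgrounds of 32 to 66. Probe A_52_P468564 gave 46.1 to 57.6 in the 6 null samples, none well above background, and 82.4 to 143 in the 6 wild-type samples. For that probe null livers therefore have only a bound. On the scale of the normalised sample channel, where its means were 5.90 in null and 6.80 in wild-type livers (log2), it was at least 1.68-fold lower in null livers over both diets, 1.78-fold on high fat and 1.59-fold on low fat. Such a bound sets each dim array at no less than the lowest signal that was well above background. It holds for the sample channel alone, and for a probe that passed the filter only through the wild-type arrays. The log ratio, which also takes the pool channel into account, gave the smaller difference of -0.58. In the limma fit this probe did not pass over both diets (adjusted p = 0.154), on high fat (0.855) or on low fat (0.598).

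**Figure D4:**
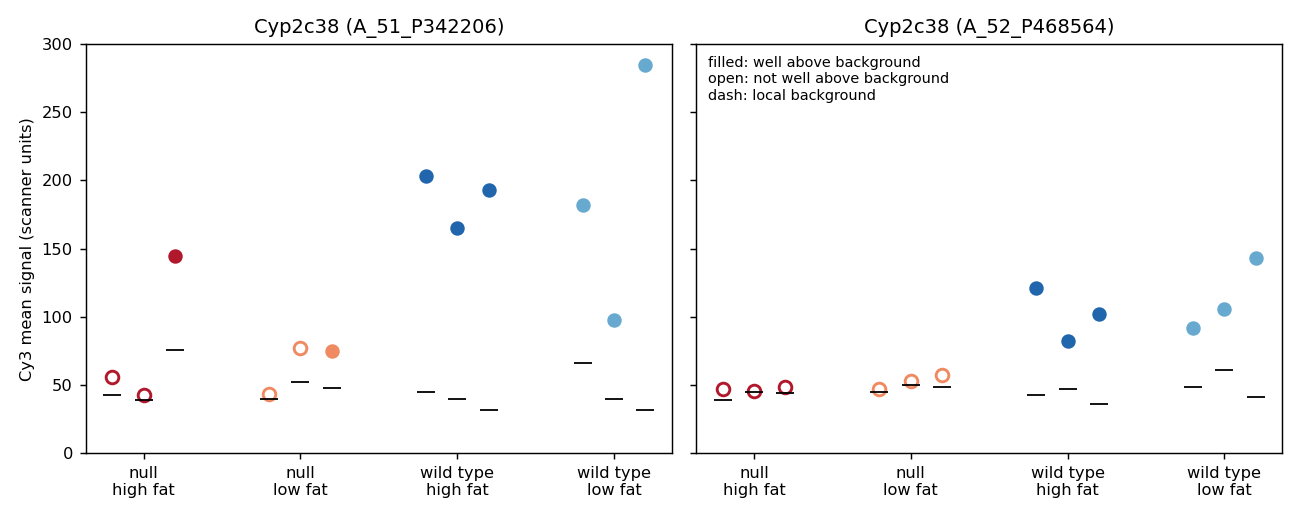
Cy3 mean signal in scanner units (y axis, from 0) of the 2 Cyp2c38 probes in null and wild-type livers on high and low fat (x axis). Each circle is 1 array, filled where the signal was well above background and open where it was not, and dashes are local backgrounds; the wild-type circles are all filled, and the null circles are filled on 2 of 6 arrays for A_51_P342206 and on 0 of 6 for A_52_P468564.

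Within slides both probes were lower in null livers wherever null and wild-type arrays of 1 diet shared a slide. On high fat the differences of A_51_P342206 and A_52_P468564 were -1.05 and -0.66 on slide 2 and -1.79 and -0.89 on slide 3. On low fat they were -1.08 and -0.95 on slide 3, from 1 array of each genotype. In scan 1 the low-fat arrays of the 2 genotypes lay on different slides, with wild-type low-fat array 1 as the only wild-type one. There the differences were -0.60 and 0.02. In the authors' deposited table, made from the scanner software's processed signals, the log2 ratio of null over wild type was -3.83 on high fat and -3.81 on low fat for A_51_P342206, and -2.49 on high fat and -1.53 on low fat for A_52_P468564. With 4 of the 6 null arrays of A_51_P342206 not well above background, the size of its difference depended on how low signals were handled, and was -3.82 from the processed signals. Over the 27 alternative settings in which this probe was tested the difference stayed below 0, from -3.82 to -0.96, and the call held in 9. It ended, among others, with the replicate number as a block (-1.11, adjusted p = 0.0562), with slide as a block (-1.16, adjusted p = 0.0778), with no filter on dim probes (adjusted p = 0.11) and with the background model fitted to all spots (-0.96, adjusted p = 0.213). Leaving out any 1 array other than wild-type low-fat array 1 or 2 also ended it (adjusted p = 0.0661 to 0.126).

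No probe of the other members passed for genotype, on either diet or over both. On low fat, null livers were higher by 1.44 for Cyp2c54, 1.21 and 0.81 for the Cyp2c37 probes and 1.01 for Cyp2c40 probe A_52_P200121, and none passed (adjusted p = 0.571 to 0.890). Without wild-type low-fat array 1 the Cyp2c54 difference was 0.59 and those of Cyp2c37 were 0.36 and -0.27, so the direction of Cyp2c37 probe A_51_P498882 turned. On high fat the differences of Cyp2c29, Cyp2c37 and Cyp2c54 were between -0.06 and 0.04, with 95% intervals as wide as -1.64 to 1.52, and that of Cyp2c39 was -0.30.

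Cyp2c40, known as an arachidonate hydroxylase, had probes that disagreed. A_52_P200121 read 1.11, 0.08 and 1.82 in null high-fat livers and 0.95, 1.11 and 1.66 in null low-fat livers. In wild-type livers it read 1.22, 0.92 and 0.52 on high fat and 0.43, -0.14 and 0.39 on low fat. The null low-fat arrays all lay above the wild-type low-fat arrays (difference 1.01, SE 0.38, adjusted p = 0.571). A_51_P502599 read -0.08, -0.66 and 0.42 in null high-fat livers, 0.34, 0.65 and 0.65 in null low-fat livers, 0.25, 0.28 and 0.02 in wild-type high-fat livers and -0.03, 0.46 and 0.29 in wild-type low-fat livers. Its genotype groups overlapped on both diets. The 2 probes correlated at 0.49 over the 12 arrays.

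Cyp2c44, an epoxygenase best known from the kidney, read 0.12, 0.11 and 0.85 in null high-fat livers, -0.32 to 0.17 in null low-fat livers, 0.22 to 0.61 in wild-type high-fat livers and -0.31 to 0.38 in wild-type low-fat livers. Every pair of its groups of 1 diet overlapped, with genotype differences of -0.12 on high fat and -0.10 on low fat. Cyp2c55, which hydroxylates arachidonate and is known from the intestine, read -0.92 to -0.36 in null high-fat livers, -0.74 to -0.50 in null low-fat livers, -0.76 to -0.25 in wild-type high-fat livers and -0.66 to 0.53 in wild-type low-fat livers. Its highest value was on wild-type low-fat array 1, where the Cy3 signal was 353 units, against 61.4 to 106.2 on the other arrays. The genotype difference of Cyp2c55 was -0.05 on high fat and -0.53 on low fat (adjusted p = 0.741), or -0.22 without that array (adjusted p = 0.791).

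**Figure D5:**
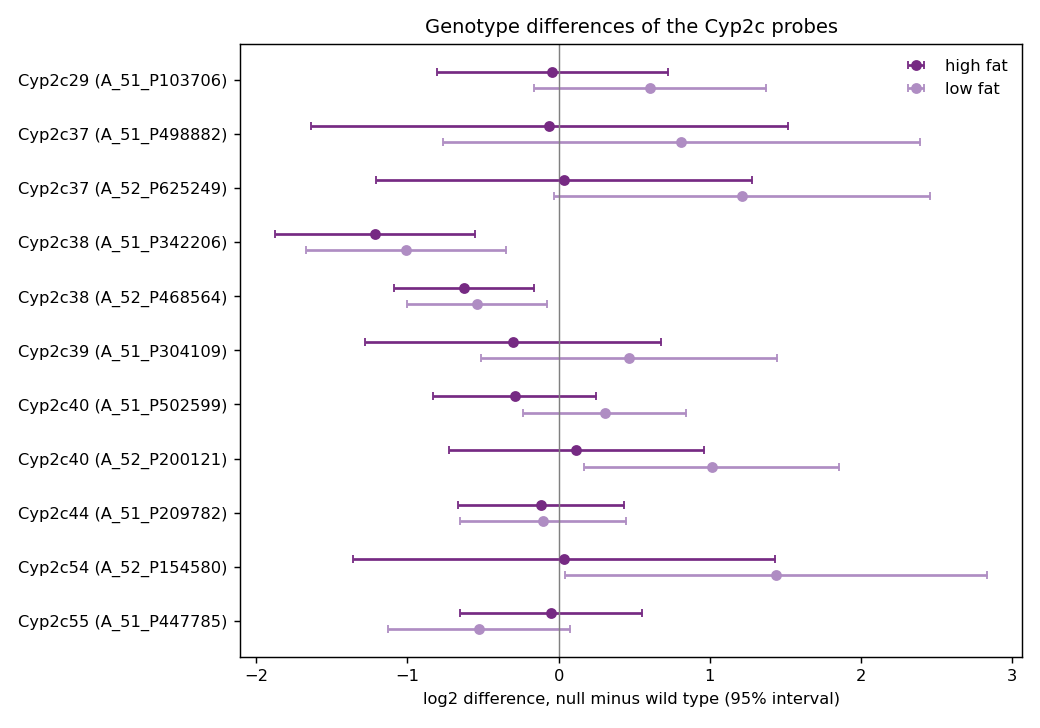
Log2 difference between null and wild type (x axis) of the 11 Cyp2c probes (y axis) on high and low fat, with 95% intervals from the limma fit. The 2 Cyp2c38 probes have intervals below 0 on both diets, and on high fat the intervals of the other 9 probes include 0.

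In counts, 0 of 11 family probes passed for genotype on high fat, against 0.0652% of all probes, and 0 of 11 on low fat, against 0.0419%. Averaged over both diets 1 of 11 passed, the Cyp2c38 probe A_51_P342206 described above, against 0.624% of all probes called and 0.34% called lower; nothing is read from that count. An unadjusted p under 0.05 was reached by 2 of 11 on high fat (3.87% of all probes), by 4 of 11 on low fat (7.29%) and by 2 of 11 over both diets (9.31%). Groups lay apart with null lower for 2 of 11 on high fat (6.12%) and for 1 of 11 on low fat (4.21%). Over both diets they lay apart with null lower for 1 of 11 (0.495%). All of these were Cyp2c38 probes, as were those with null lower at an unadjusted p under 0.05. Cyp2c38 passed the filter only through the wild-type arrays, so nothing is read from these counts either. Groups lay apart with null higher for 2 of 11 on low fat (4.92%), Cyp2c37 probe A_52_P625249 and Cyp2c40 probe A_52_P200121. The family's median genotype difference was -0.06 on high fat, 0.47 on low fat and 0.08 over both, and 0.01 over all probes in each case.

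Cyp2c70, the neighbour at the end of the cluster that makes muricholic bile acids in mice, is not one of the 9 genes and was higher in null livers. Its log2 ratios were 1.43, 1.13 and 1.72 in null high-fat livers and 1.66, 1.66 and 1.63 in null low-fat livers. They were -0.12, 0.13 and -0.21 in wild-type high-fat livers and -0.18, 0.82 and -0.21 in wild-type low-fat livers. All null arrays lay above all wild-type arrays, and over both diets Cyp2c70 rose 2.83-fold (log2 SE 0.18, adjusted p = 0.00442). The call held in 26 of 28 alternative settings and ended with median centring (adjusted p = 0.987) and with slide as a block (1.35, adjusted p = 0.0672). The other measured gene of the list of 6 further Cyp2c genes, Cyp2c65, differed by -0.03 (adjusted p = 0.964). The list had 2 measured probes.

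The rest of the pathway was read from lists chosen for their function. Of the Cyp2j epoxygenases, 0 of 7 measured probes passed in any of the 7 comparisons, and 0 had an unadjusted p under 0.05; those with the smallest p were Cyp2j6 for genotype over both diets (0.21, adjusted p = 0.684) and Cyp2j5 for diet over both genotypes (0.37, adjusted p = 0.732). Of the genes that supply arachidonate or handle its epoxides, 0 of 19 probes passed, and at an unadjusted p under 0.05 there were 6 for diet over both genotypes (8.01% of all probes) and 1 for genotype over both diets (9.31%). Acsl1, which activates fatty acids, was 0.91 higher on high fat (adjusted p = 0.237), and the elongase Elovl5 was 0.80 lower in null livers (adjusted p = 0.311). Of the P450 electron donors and haem enzymes, 0 of 13 passed, with 3 and 1 at an unadjusted p under 0.05 in the same comparisons. Cytochrome b5 (Cyb5a) was 0.62 higher on high fat (adjusted p = 0.128), the ferredoxin Fdx1 0.53 higher (adjusted p = 0.225), and Por, the electron donor of all these enzymes, was 0.72 lower in null livers (adjusted p = 0.371).

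Among regulators of hepatic Cyp2c transcription, 1 of 30 measured probes passed for genotype over both diets, against 0.624% of all probes. On high fat 1 of 30 passed, against 0.0652%. Both times it was a probe of Onecut1, a liver homeobox factor. Onecut1 probe A_51_P428977 rose by 1.30 over both diets (adjusted p = 0.00467) and by 1.66 on high fat (adjusted p = 0.0414) in null livers. The other measured Onecut1 probe, A_51_P368894, passed in neither comparison. The call over both diets held in 25 of 27 alternative settings and that on high fat in 14 of 27. For diet over both genotypes 0 of 30 passed, with 3 at an unadjusted p under 0.05, against 8.01% of all probes. CAR (Nr1i3) was 1.09 higher on high fat over both genotypes (adjusted p = 0.271), 0.76 higher and past the threshold without wild-type low-fat array 1 (adjusted p = 0.0482), and 1.57 higher in wild-type livers (adjusted p = 0.444).

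Other P450 genes known as CAR or PXR targets were lower in null livers. Over both diets 4 of 14 measured probes passed, against 0.624% of all probes, and all 4 fell in null livers, against 0.34%. Cyp2b9 probe A_51_P467076 fell by 2.88 (adjusted p = 0.0289). Cyp2a4 probes A_51_P377154 and A_52_P246255 fell by 1.95 and 1.93 (adjusted p = 0.03 and 0.0186), and Cyp2a5 by 1.92 (adjusted p = 0.00109). A further measured probe of Cyp2b9 (A_52_P256914) and of Cyp2a4 (A_52_P9703) did not pass. Cyp2b9 and Cyp2a4 are also known as female-biased in liver, and their probes are counted again among the female-biased probes below. Cyp2a4 and Cyp2a5 are near-identical copies whose probes may share signal. Cyp2a5 also fell on low fat alone (-2.25, adjusted p = 0.0236) and rose by 1.38 with high fat over both genotypes (adjusted p = 0.027). Over both diets the Cyp2a5 call held in 27 of 28 alternative settings, that of Cyp2b9 in 12 of 28 and those of Cyp2a4 in 13 of 28 and 17 of 27. The Cyp2a5 call on low fat held in 16 of 28 and its call for diet over both genotypes in 13 of 28. The median genotype difference of the 14 probes was -1.20. Among them, Cyp2b9 probe A_52_P256914, Cyp2b13 probe A_52_P289091 and Cyp2b10 probe A_52_P472486 were well above background on 5, 5 and 4 of 12 arrays. These passed the filter through part of the groups only, so a difference may be built into their selection. The first 2 are also in the female-biased list. Over both diets 3 of 10 male-biased probes rose in null livers, against 0.284% of all probes, and 4 of 10 female-biased probes fell, against 0.34%. Without wild-type low-fat array 1 these were 4 (0.506%) and 5 (0.77%). Among the male-biased probes that rose was Moxd1 probe A_51_P493987, which was well above background on 9 of 12 arrays. It passed the filter only through the null groups, so a difference may be built into its selection. The part of the shifts of male-biased and female-biased probes in the Cyp2c38 value was not tested.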

How the data were processed

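Liver RNA of 12 samples was measured on two-colour Agilent arrays. The deposited intensity values are each spot's mean signal and median local background, made by Feature Extraction 9.1.3.1 per the file headers. The log10 ratios and processed intensity values, background-subtracted and dye-normalised, were also made by that software, per the file headers. The authors' deposited table of log2 ratios, for which the submitters' processing notes name limma, equals differences of group means of those ratios on 43379 spots. The sources used here name no genome build. The labels' protocols name 2 labelling kits, and which one each sample had is not given.

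From the mean signals and backgrounds, normexp (offset 50) was fitted without 38 spots whose local background exceeded the spot by over 30 units, because on all spots it failed on 2 arrays. Loess within arrays, averaging of repeated spots (245 probes) and removal of 120 non-uniform spots followed. Limma 3.58.1 in R 4.3.3 fitted 1 mean per group to all 12 arrays with 8 residual degrees of freedom and 3.14 prior ones. Adjustment was by Benjamini-Hochberg over 21479 probes at a threshold of 0.05. Of these, 60 had a missing value. A fold given as at least N uses the sample channel after loess and Aquantile, and without a dye swap a dye effect differing between arrays would stay in it.

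The arrays came from 4 slides read in 3 scans. Slide 1 held only null low-fat arrays and slide 4 only wild-type arrays. Same-numbered deviations from the group means correlated at 0.49, 0.47 and 0.31 between the wild-type diets. Those pairs share slides, so number and slide cannot be told apart there. Between the genotypes on high fat, numbers 1 and 2 share slides and gave 0.60 and 0.78. Number 3 does not share a slide and gave 0.11. Unlike-numbered null array 3 and wild-type array 1, both on slide 2, gave 0.63, and the remaining high-fat pairs lay at -0.74 to 0.08. On high fat the correlation thus went with the shared slide and not with the number. Same-numbered arrays correlated at -0.46, -0.07 and 0.02 between the genotypes on low fat. Between the null diets the values were -0.64, -0.64 and 0.11, and no same-numbered pair of these comparisons shares a slide.

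The 9 genes, the pathway and marker lists and the rule for named genes were chosen with earlier results of these data known. All family probes were named, and each pathway list gave up to 4 members that passed, or failing that the 2 of smallest p, of which selected ones are printed. Pathway lists covered other Cyp2c genes, Cyp2j epoxygenases, arachidonate supply and epoxide handling, electron donors and haem supply, regulators, and CAR and PXR targets. The steps were tested on simulated data for genotype over both diets. Of 195 probes called there, 16 had been given no change. Of the probes given log2 changes of 1, 2 and 4, 73.1%, 95.5% and 100% were recovered. Upstream windows come from RefSeq (GRCm38.p6); Cyp2c44 and Cyp2c54 were not matched there.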

Additional observations from a re-analysis of the deposited data

How the results depend on the processing

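The family count for genotype over both diets was 1, the Cyp2c38 probe A_51_P342206. It was 0 with median centring (adjusted p = 0.987), scale normalisation (0.0618), no background correction (0.103), no filter on dim probes (0.11), a filter on all 12 arrays (9 family probes left, this probe not among them), slide as a block (0.0778), the replicate block (0.0562, 102 probes called in all), a robust variance trend (0.0637) and normexp fitted on all spots (0.213), the last chosen after seeing the data. It was 2, with Cyp2c38 probe A_52_P468564 also called, under normexp with offset 0 (-1.83, adjusted p = 0.0301) and the sample channel alone (-1.01, adjusted p = 0.0178). Leaving out 1 array gave 0 to 2, with 0 in 10 of 12 cases and 2 without wild-type low-fat array 1. Without that array 1.28% of all probes passed for genotype over both diets, against 0.624% with it. The family count for diet over both genotypes was 0, and 0 to 1 when 1 array was left out. The 1 was again without wild-type low-fat array 1, where 0.102% of all probes passed, against 0.0605% with all arrays. For most other settings the share of all probes is not given here, and nothing is read from the counts. The replicate block changed no other family call, and the other family counts were 0 under each setting run. The diet differences of Cyp2c29, Cyp2c37, Cyp2c39 and Cyp2c54 over both genotypes were above 0 in every setting, from 0.61 to 2.39. No family direction that had been called reversed. Correlations and list counts without wild-type low-fat array 1 were added after seeing the data. The cause of the changes was not tested, apart from the missing probe under the strict filter. Signals near background limit Cyp2c38, and 3 arrays per group limit the rest.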
